A study of Mus musculus with 8 samples.

Results

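Collagen crosslinking and processing enzymes are described here as 10 genes of the deposited count table, chosen by name. They are the lysyl oxidases Lox, Loxl2, Loxl3 and Loxl4, the prolyl 4-hydroxylase subunits P4ha1, P4ha2 and P4ha3, the lysyl hydroxylases Plod1 and Plod2, and the collagen chaperone Serpinh1. All 10 were found among 33105 genes of the table, and 9 of them were among the 16603 genes that held enough counts to be tested, P4ha3 being the exception. The counts came from messenger RNA of hearts of C57BL/6J mice, with 4 libraries labelled Sham and 4 labelled MR, the series' abbreviation for mitral regurgitation. MR was made by a minimally invasive operation on the mitral valve, which lets blood leak back and loads the heart with volume. The labels give neither sex, age, time after surgery, nor the part of the heart, and no genetic change in either group. The study set out to find pathways of the resulting hypertrophy and genes characteristic of MR.

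Collagen chains are modified before they leave the cell and joined after. In the endoplasmic reticulum, prolyl 4-hydroxylases stabilise the triple helix, lysyl hydroxylases prepare lysines for later crosslinks, and the chaperone HSP47, the product of Serpinh1, binds the folded procollagen until it is exported. Outside the cell, lysyl oxidases, which are copper-dependent amine oxidases, oxidise lysines of collagen and elastin so that they form the covalent crosslinks that stiffen heart tissue. In the heart most fibrillar collagen is made by fibroblasts.

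None of the 9 tested enzymes passed the threshold over all genes, but 4 of them lay higher in every MR library than in any Sham library. They were Loxl2, at a 1.83-fold higher fitted level, Loxl3 (1.38-fold), Serpinh1 (1.26-fold) and Plod1 (1.22-fold). P4ha2 averaged 54.3 ± 0.639 CPM in the Sham libraries against 54.3 ± 0.732 CPM in the MR libraries (SD, n = 4), where CPM is a count scaled to a common library total. In the edgeR quasi-likelihood test with Benjamini-Hochberg adjustment, 0 of 9 members were called at a false discovery rate of 0.05, beside 0.458% of all genes tested. At an unadjusted p under 0.05 in edgeR there were 5 of 9, all higher in MR, beside 7.78% of all genes tested that were higher at that level. DESeq2 called 4 of the 9, beside 3.91% of all genes, and limma-voom with quality weights called 3, beside 2.75%. In edgeR 5 of all 10 members, P4ha3 being tested too, were called with no filter on low counts, beside 3.06%. Of the 9, edgeR called 1 without robust moderation, beside 0.56%, 1 after removal of a trend with gene length, beside 1.39%, and 3 without Sham replicate 3, beside 5.28%. The groups did not overlap, with MR higher, in 4 of the 9, beside 4.19% of all genes tested. The median log2 fold change was 0.28 over the 9 and 0.00 over all genes tested.

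Total counts ran from 42291511 to 58658094 per library, and a count of 0 allowed up to 0.0511 to 0.0709 CPM, counting error only. Sham replicate 3 lay at 7.2 on the first principal component of log2 CPM, nearer to the MR libraries (12.6 to 22.8) than to the other Sham libraries (−32.4 to −15.7). On the second component Sham replicate 1 was far from the rest, with a score of 31.2 where the other libraries had −19.3 to 19.7. Of 9 lists of cell type markers, that of neutrophils differed most between Sham libraries, with summed levels of 7.92 to 79.9 CPM in Sham and 3.03 to 6.18 CPM in MR, and all 7 tested markers had negative log2 fold changes. Their part in the results below was not tested. In whole tissue, fewer cells of a type and less RNA per cell cannot be told apart.

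**Figure D1:**
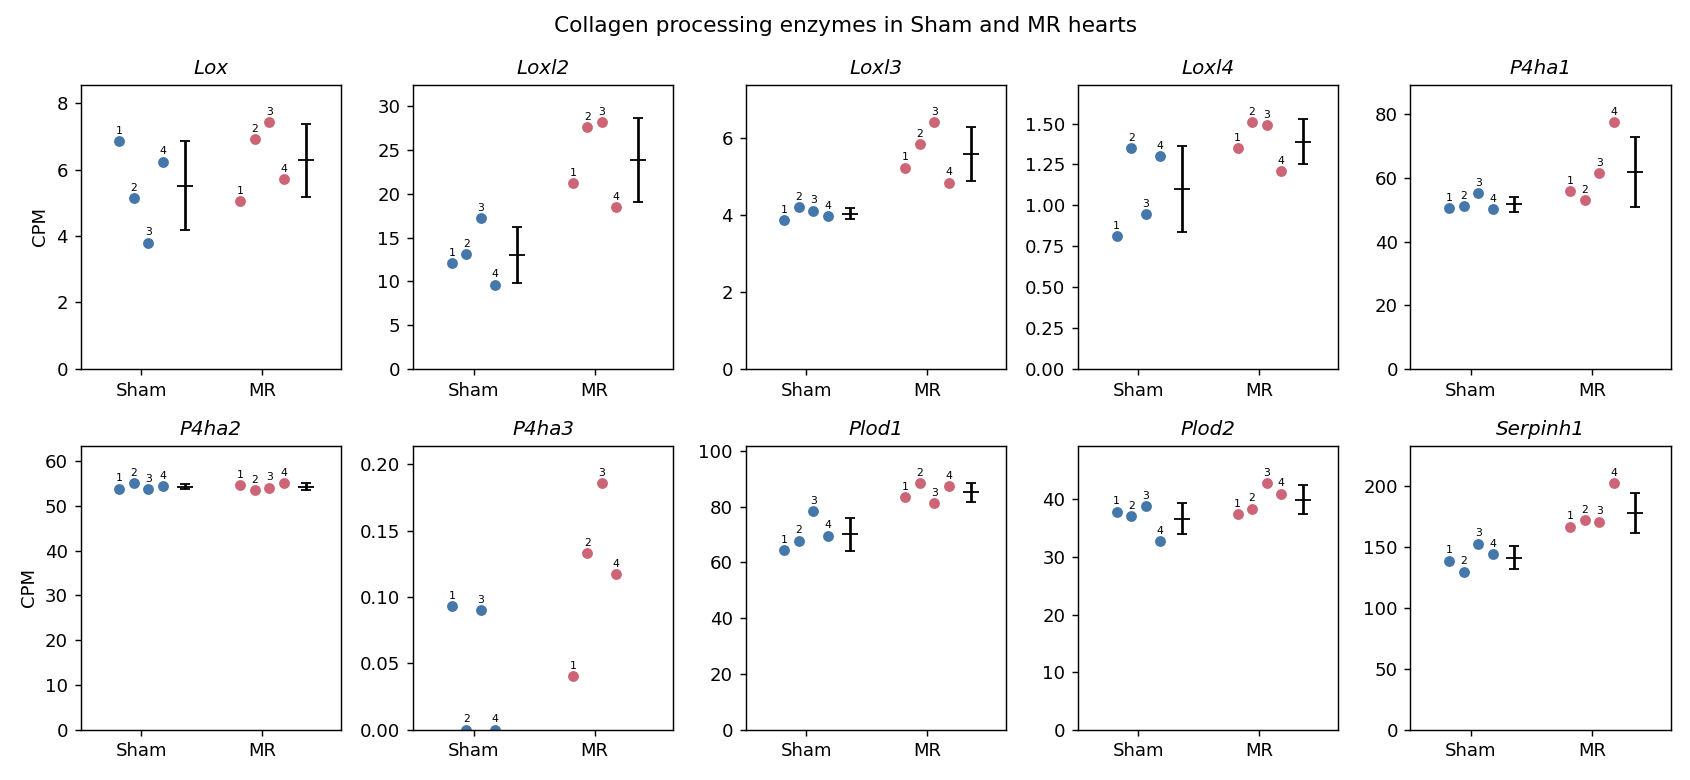
Levels of the 10 genes in CPM in each library, with points numbered by replicate and the mean and SD of 4 libraries beside them (left out for P4ha3, which was not tested). The vertical axes start at 0 and differ between panels. Loxl2, Loxl3, Plod1 and Serpinh1 do not overlap between the groups, while P4ha2 sits between 53.5 and 55.2 CPM in every library.

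Serpinh1 was the most abundant of the 10. It measured 139, 130, 153 and 144 CPM in Sham replicates 1 to 4 and 167, 172, 171 and 203 CPM in MR replicates 1 to 4. All MR libraries lay above all Sham libraries, and MR replicate 4 was well above the other 3. The log2 fold change was 0.33 (SE 0.08, 95% interval 0.16 to 0.51, edgeR adjusted p = 0.0766). Without MR replicate 4 it was 0.27 (adjusted p = 0.164), and without Sham replicate 3, the highest Sham library, it was 0.37 and passed (adjusted p = 0.0217). Serpinh1 (ENSMUSG00000070436) is a protein-coding gene at chr7:99345376-99353239 of GRCm38, on the minus strand.

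Of the 3 catalytic alpha subunits of prolyl 4-hydroxylase, P4ha1 and P4ha2 could be tested and neither passed. P4ha1, the main alpha subunit of most cells, measured 50.6, 51.2, 55.3 and 50.1 CPM in Sham and 55.8, 53.0, 61.5 and 77.6 CPM in MR. The groups overlapped, because MR replicate 2 was below Sham replicate 3, and MR replicate 4 was the highest by far. Its log2 fold change of 0.26 (SE 0.10, 95% interval 0.04 to 0.48, edgeR adjusted p = 0.248) was 0.13 without MR replicate 4 (adjusted p = 0.49). P4ha2, which encodes the second alpha subunit, measured 53.9, 55.2, 53.8 and 54.5 CPM in Sham and 54.6, 53.5, 54.1 and 55.2 CPM in MR. The 95% interval of its log2 fold change, −0.12 to 0.12, excludes a difference as large as the 0.33 of Serpinh1. The sign of so small a value turned with the setting, and it ran from −0.01 to 0.04 over all settings. P4ha3 held 4, 0, 4 and 0 counts in Sham and 2, 6, 8 and 7 in MR, so it was close to the limit of detection and no fold is given. P4hb, the beta subunit that all 3 alpha subunits share, averaged 198 ± 17.4 CPM for Sham against 182 ± 5.21 CPM for MR, SD over 4 libraries each, which is a log2 fold change of −0.13 (edgeR adjusted p = 0.458).

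The promoter sequences of Serpinh1, P4ha1 and P4ha2 are shown because they set the member with the highest level beside a pair of subunits of the same enzyme, of which P4ha2 varied least of the members. RefSeq windows on GRCm38.p6, reaching from 250 bases before the annotated start to 50 bases after it, were found for 6 of the 10 members (Loxl4, P4ha1, P4ha2, P4ha3, Plod1 and Serpinh1). These starts need not be those of GENCODE, in which P4ha2 begins at chr11:54100095, so that its window lies inside the annotated gene. For Plod1 the stretch after the start did not match a GENCODE transcript. The 250 bases before the start are printed 5′ to 3′ on the gene's strand. Capitals mark ACGTG, a form of the core of the hypoxia response element, or CACGT when read on the other strand. Other forms of the core, such as GCGTG, were not searched and are not marked. Prolyl and lysyl hydroxylases are textbook targets of hypoxia-inducible factors. The Serpinh1 window is chr7:99353240-99353489 on the minus strand, that of P4ha1 is chr10:59323046-59323295 on the plus strand, and that of P4ha2 is chr11:54100674-54100923 on the plus strand.
Serpinh1: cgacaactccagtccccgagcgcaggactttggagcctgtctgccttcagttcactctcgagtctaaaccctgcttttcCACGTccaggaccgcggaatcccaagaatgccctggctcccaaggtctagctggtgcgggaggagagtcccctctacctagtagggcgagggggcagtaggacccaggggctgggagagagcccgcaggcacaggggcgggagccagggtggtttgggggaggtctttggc
P4ha1: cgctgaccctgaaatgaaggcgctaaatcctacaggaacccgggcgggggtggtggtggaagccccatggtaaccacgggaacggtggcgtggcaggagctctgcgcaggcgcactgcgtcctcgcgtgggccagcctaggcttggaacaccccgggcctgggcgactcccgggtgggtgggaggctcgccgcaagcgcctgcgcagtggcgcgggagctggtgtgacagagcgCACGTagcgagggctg
P4ha2: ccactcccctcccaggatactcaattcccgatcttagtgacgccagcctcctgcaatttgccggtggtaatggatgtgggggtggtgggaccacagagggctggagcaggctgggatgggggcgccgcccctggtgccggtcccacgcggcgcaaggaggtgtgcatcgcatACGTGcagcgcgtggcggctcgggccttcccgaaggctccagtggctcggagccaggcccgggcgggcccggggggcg

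A match to ACGTG on either strand was found at −171 to −167 from the start in Serpinh1, at −16 to −12 in P4ha1 and at −78 to −74 in P4ha2. P4ha2 held another at 10 to 14 after the start, outside the stretch shown. Thus 3 of the 6 windows held ACGTG on either strand, beside 19.6% of 32851 mouse windows of the same length. These 3 are the windows printed, and those not printed (Loxl4, P4ha3 and Plod1) held no ACGTG on either strand. Windows without it may hold other forms of the core. The 6 windows had 62.3% to 75% G and C, against a median of 52.7% over all windows. All 6 held the GC box, GGGCGG on either strand, found in 35.7% of all windows. None of the 6 held any of 4 other motifs searched on both strands of this window. These were the AP-1 site TGACTCA (5.2% of all windows), the CCAAT box, CCAAT (37.4%), the heat shock element, searched as GAA, TTC and GAA with gaps of 2 bases (0.603%), and the endoplasmic reticulum stress element, searched as CCAAT and CCACG with a gap of 9 bases (0.119%). The last of these contains the CCAAT box. A match describes letters and not binding.

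Transcript levels of textbook targets of hypoxia-inducible factors outside the members were read in the same libraries. Of 16 tested, 0 rose and 0 fell in edgeR, with 2 at an unadjusted p under 0.05 in either direction, beside 15.1% of all genes tested, and the median log2 fold change was −0.08. The lowest p-values were those of Hif3a, an inducible member of the factor family, at −0.66 (adjusted p = 0.0739), the mitophagy receptor Bnip3 at −0.27 (adjusted p = 0.188) and Ndrg1 at −0.14 (adjusted p = 0.409). Vegfa, the vascular growth factor, averaged 316 ± 14.9 CPM for Sham against 317 ± 30.5 CPM for MR, SD over 4 libraries each (edgeR adjusted p = 0.994). Vegfa was picked with its value in view. The activity of these factors, and their part in the enzymes' values, were not tested.

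Both lysyl hydroxylases of the group were tested and neither passed. Plod1, which acts on lysines in the helix, measured 64.3, 67.8, 78.4 and 69.6 CPM in Sham and 83.3, 88.6, 81.3 and 87.5 CPM in MR. The lowest MR library lay above the highest Sham library, replicate 3. The log2 fold change was 0.28 (SE 0.07, 95% interval 0.13 to 0.44, edgeR adjusted p = 0.0862), and it passed without Sham replicate 3, at 0.34 (adjusted p = 0.0137). Leaving out any other library gave 0.24 to 0.30, and none of these 7 fits passed (adjusted p 0.109 to 0.244). Plod2, which acts on lysines in the telopeptides at the chain ends, measured 37.9, 37.1, 38.8 and 32.8 CPM in Sham and 37.4, 38.4, 42.9 and 41.0 CPM in MR. These groups overlapped, and the log2 fold change of 0.12 (SE 0.07, 95% interval −0.03 to 0.28) had an edgeR adjusted p of 0.461. Exons of the unclassified transcript Gm38391 cover 346 bases of Plod2 on the other strand, and since the strand setting of the counting is not given, reads there cannot be assigned. Plod3, the third lysyl hydroxylase and no member of the group, averaged 20.7 ± 1.12 CPM for Sham against 20.9 ± 1.33 CPM for MR, SD over 4 libraries each (edgeR adjusted p = 0.934). Exons of a gene on the other strand cover 529 bases or 11.7% of the Plod3 exons, so the Plod3 value is uncertain.

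Among the lysyl oxidases, Loxl2 had the largest difference of the 9 tested members. Loxl2 (ENSMUSG00000034205, chr14:69609068-69695834, GRCm38, plus strand), which crosslinks collagen including that of basement membranes, measured 12.1, 13.1, 17.2 and 9.63 CPM in Sham and 21.2, 27.6, 28.2 and 18.5 CPM in MR. Each MR library was above each Sham library, although MR replicate 4 and Sham replicate 3 came close. Exons of the antisense transcript Gm27177 cover 301 bases or 5.57% of the Loxl2 exons on the other strand, and reads there cannot be assigned. Gm27177 itself held 17 counts over all libraries. The log2 fold change was 0.87 (SE 0.18, 95% interval 0.47 to 1.28, edgeR adjusted p = 0.0678), and Loxl2 stood at rank 152 of the 16603 genes by p. Without Sham replicate 3 it was 1.04 and passed (adjusted p = 0.00427), while leaving out any other library gave 0.75 to 0.98 (adjusted p 0.0506 to 0.184).

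Loxl3, a relative with scavenger receptor domains like Loxl2, was low but even within Sham. It measured 3.88, 4.21, 4.12 and 3.97 CPM in Sham and 5.24, 5.85, 6.43 and 4.85 CPM in MR. The groups did not overlap, and the log2 fold change was 0.46 (SE 0.12, 95% interval 0.21 to 0.72, edgeR adjusted p = 0.0862). Exons of Htra2, a gene on the other strand, cover 535 bases or 11.6% of the Loxl3 exons, so the Loxl3 value is uncertain. Htra2 itself averaged 12.1 CPM in Sham and 12.4 CPM in MR (adjusted p = 0.856). Loxl4, the least abundant of the tested members, measured 0.812, 1.35, 0.945 and 1.30 CPM in Sham and 1.35, 1.51, 1.49 and 1.21 CPM in MR. These groups overlapped (log2 fold change 0.33, 95% interval −0.13 to 0.79, edgeR adjusted p = 0.498), and 35 to 72 counts per library limit the precision.

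Lox, the founding member of the family, was spread widely in both groups. It measured 6.85, 5.14, 3.80 and 6.24 CPM in Sham and 5.04, 6.91, 7.43 and 5.71 CPM in MR. Sham replicate 3, the highest Sham library for Loxl2, Plod1 and Serpinh1, was the lowest for Lox. The 95% interval of the log2 fold change, −0.19 to 0.56, holds both 0 and the value of Loxl1 (edgeR adjusted p = 0.671). Loxl1, the relative outside the group that is known for crosslinking elastin, passed the test. It lay between 18.4 and 20.1 CPM in Sham and between 25.1 and 31.6 CPM in MR (log2 fold change 0.52, 95% interval 0.34 to 0.69, edgeR adjusted p = 0.0201).

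**Figure D2:**
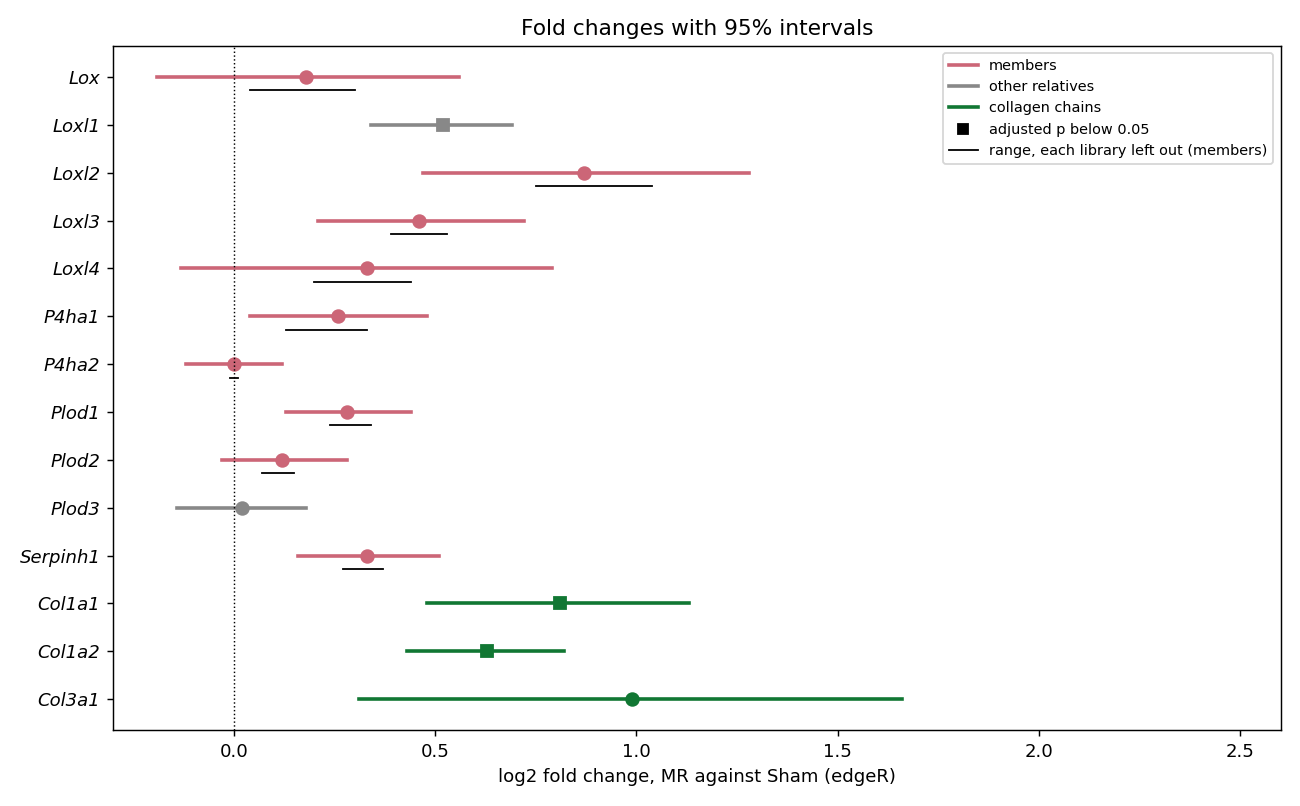
Log2 fold changes of MR against Sham from edgeR, with 95% intervals, for the 9 tested members, their relatives Loxl1 and Plod3, and 3 collagen chains. Squares mark an adjusted p under 0.05, and thin black lines span the values of the members when each library was left out. Loxl2 at 0.87 lies farthest to the right among the members and P4ha2 lies at 0.

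Per length of exon, the levels of the 10 genes spanned a wide range and kept the same order in both groups. Serpinh1 stood at 57.9 ± 4.06 CPM per kb in Sham and 73.1 ± 6.86 in MR (SD, n = 4). P4ha1 and Plod1 followed, with means over all 8 libraries of 13.8 and 11.5 CPM per kb and ranges that overlapped. P4ha2 at 8.71 and Plod2 at 7.1 CPM per kb came next, and each was separated from its neighbours. Among the members, the enzymes that act outside the cell were lower, with Loxl2 at 3.41, Lox at 1.23, Loxl3 at 1.05 and Loxl4 at 0.295 CPM per kb. Lox and Loxl3 overlapped in range, and the other neighbours in this order did not. The order is that of the means in each group. Loxl1, a lysyl oxidase that is no member, stood at 5.83 CPM per kb in Sham and 8.35 in MR. That was above Plod3, also no member, at 4.57 and 4.63, and in MR above Plod2 at 7.41. Lengths are those of all annotated exons together, which understates genes with long exons that are seldom used.

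**Figure D3:**
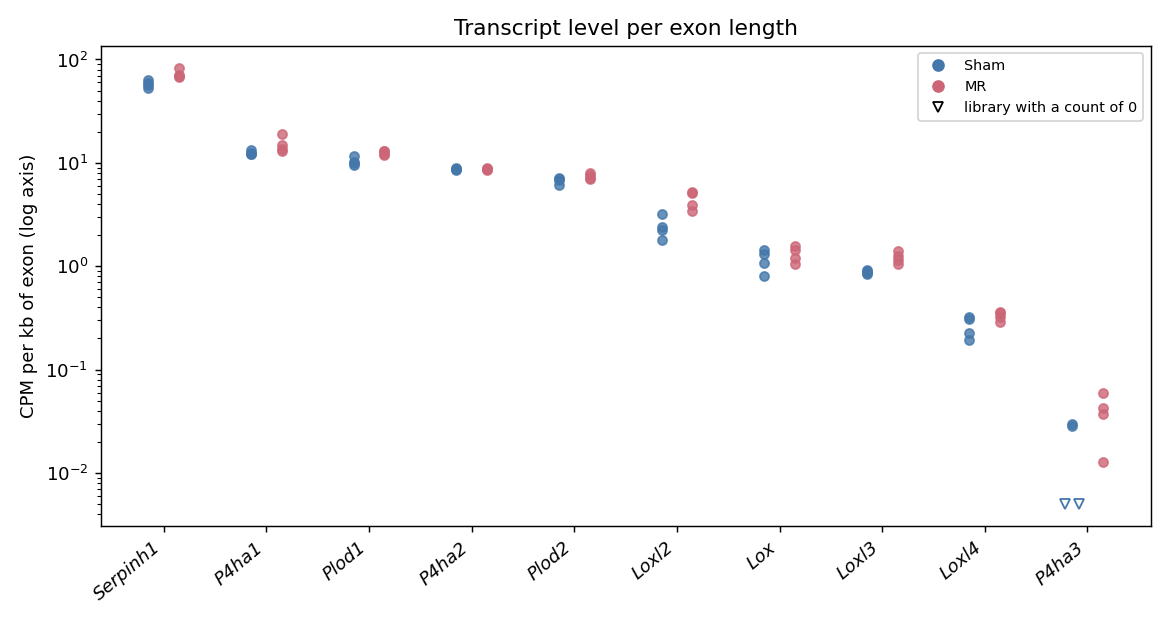
Levels in CPM per kb of exon on a log axis, a point per library, with the genes ordered by their mean over the 8 libraries. Open triangles mark the 2 libraries in which P4ha3 had a count of 0. Serpinh1 lies above all other genes shown, and among these members the lysyl oxidases lie below the hydroxylases other than P4ha3.

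The main substrates of these enzymes, the chains of type I and type III collagen, were higher in MR by more than most of the enzymes. The summed level of Col1a1, Col1a2 and Col3a1 was 218, 217, 325 and 163 CPM in Sham and 379, 456, 441 and 378 CPM in MR. Sham replicate 3 was again the highest of its group. Of 8 fibrillar collagen chains tested, 3 rose in edgeR (Col1a1, Col1a2 and Col5a2, adjusted p 0.0483, 0.0159 and 0.0474), 0 fell and 5 did not pass, with a median log2 fold change of 0.58. Over all genes tested 0.458% were called in either direction. Without Sham replicate 2 only 1 gene of all tested was called higher in MR, so these 3 calls cannot all hold there. Col3a1 was at 0.99 (95% interval 0.31 to 1.66, adjusted p = 0.176).

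Set against this sum, Loxl2 had nearly the same mean in both groups and the means of the other tested members were lower in MR. Loxl2 held 55.6, 60.4, 53.0 and 58.9 counts per 1000 collagen counts in Sham and 55.9, 60.6, 63.9 and 49.0 in MR, so the groups overlapped fully. The library order of Loxl2 within each group also followed the collagen sum closely, with Sham replicate 4 lowest and Sham replicate 3 highest, and MR replicates 4 and 1 below MR replicates 2 and 3. P4ha2 held 247, 255, 166 and 333 counts per 1000 collagen counts in Sham and 144, 117, 123 and 146 in MR. Plod1 went from 319 ± 77.5 to 207 ± 21.7 and Plod2 from 166 ± 34.1 to 97.2 ± 9.87 (SD, n = 4). For P4ha2, Plod1 and Plod2 all MR ratios lay below all Sham ratios. These 3 of 9 compare with 67.3% of all genes tested whose ratio did not overlap and was lower in MR, so that the count is no result about the enzymes. The other 5 ratios (Lox, Loxl3, Loxl4, P4ha1 and Serpinh1) were lower in MR on average and overlapped, in each of them because of Sham replicate 3. Over all genes tested the median log2 ratio was −0.91, and 1.59% of genes had a mean ratio at least as high in MR as in Sham, Loxl2 among them at 0.01. These ratios are descriptions without a test.

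**Figure D4:**
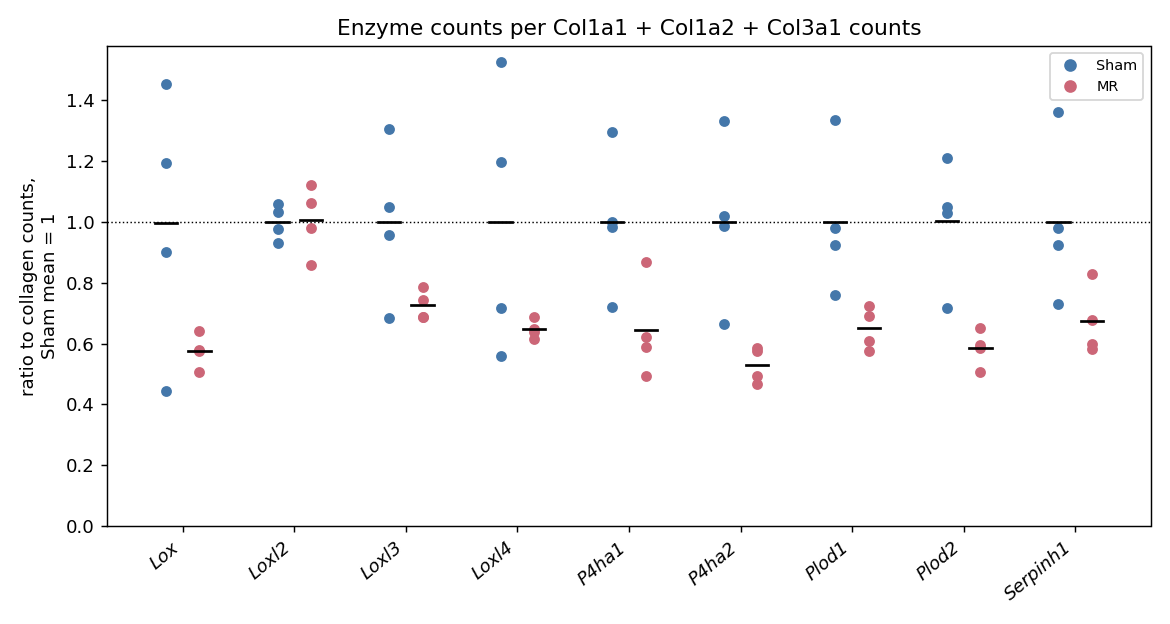
Counts of each tested member divided by the summed counts of Col1a1, Col1a2 and Col3a1 in the same library, relative to the Sham mean, with a point per library and bars at the group means. Loxl2 lies on both sides of 1 in both groups, and the MR means of the other 8 members lie below 1.

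Other genes of collagen folding, export and assembly mostly did not pass the test. Of 27 tested, 1 rose (Loxl1), 0 fell and 26 did not pass in edgeR, beside 0.458% of all genes tested that were called. At an unadjusted p under 0.05 in edgeR there were 6 in either direction, beside the same 15.1% of all genes tested. The median log2 fold change was 0.04. Adamts2, which removes the amino-terminal propeptide of procollagen, averaged 19.9 ± 3.93 CPM for Sham against 30.5 ± 3.73 CPM for MR, SD over 4 libraries each, with a log2 fold change of 0.62 (edgeR adjusted p = 0.061). Tll1, a protease of the family that removes the carboxy-terminal propeptide, had a log2 fold change of 1 (adjusted p = 0.0862), and its relative Bmp1 was at 0.01 (adjusted p = 0.971). Tll1 averaged only 0.466 CPM in Sham and 0.931 CPM in MR, below Loxl4, which limits the precision. Bmp1 averaged 35.2 and 35.4 CPM. The prolyl 3-hydroxylase gene P3h2 was at 0.58 and P3h4, which takes part in lysine hydroxylation of collagen, was at −0.49 (adjusted p 0.0948 and 0.0892). Besides Loxl1, the genes of this list were picked with their values in view.

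Fibroblast markers stood beside these values. The mean log2 CPM of 12 fibroblast markers was 5.56 ± 0.04 in Sham and 5.71 ± 0.11 in MR, and that of 8 markers of activated fibroblasts was 2.82 ± 0.21 and 3.58 ± 0.26 (SD, n = 4). In an exact two-sided permutation test over 70 arrangements both had p = 0.0286, the smallest it can give, and adjusted over the 9 marker lists p = 0.0858. Of the fibroblast markers 0 of 12 passed in edgeR. Their log2 fold changes were positive in 8 and negative in 4, with a median of 0.1. For the lowest p-values the log2 fold change was 0.61 for Vcan (adjusted p = 0.0529), −0.26 for Scara5 (adjusted p = 0.116) and 0.60 for Mfap5 (adjusted p = 0.151). Of 7 tested markers of activated fibroblasts 2 rose, Cilp at 1.34 and Thbs4 at 0.88 (adjusted p 0.00905 and 0.0201), beside 0.458% of all genes called. The summed levels were 1780 to 1870 CPM in Sham and 1800 to 1950 CPM in MR for fibroblasts, and 136 to 164 CPM and 231 to 306 CPM for activated fibroblasts. No marker of either list was at 0 in all libraries, and the part of fibroblast number or state in the enzymes' values was not tested. Cardiomyocyte markers were abundant in every library (51700 to 60200 CPM in Sham and 47400 to 53900 CPM in MR, summed over 10 genes). Their mean log2 CPM differed by −0.14, with an overlap of the groups (permutation test, adjusted p = 0.154). Of the 10, 9 had negative log2 fold changes, 1 was positive and 0 passed in edgeR. At an unadjusted p under 0.05 in edgeR there were 5, beside 15.1% of all genes tested. The part of these markers in the enzymes' values was not tested. Endothelial, mural, macrophage, mesothelial and atrial lists had differences in mean log2 CPM of 0.09, 0.07, −0.02, 0.64 and 0.73, each with an overlap of the groups.

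Genes whose levels followed Loxl2 most closely over the 8 libraries were looked up among 13318 genes of at least 1 CPM. They were Mrc2, the endocytic collagen receptor Endo180 (Pearson r 0.993, Spearman rho 0.976), the proteoglycan biglycan Bgn (0.99 and 0.976), the small heat shock protein Hspb8 (0.989 and 1), the formin Fmnl2 (0.988 and 0.976) and Islr, a stromal gene (0.987 and 0.952). With the group means removed, the r of these 5 genes was 0.957 to 0.98. Of the 5, Bgn rose in MR in edgeR (log2 fold change 0.51, adjusted p = 0.0408), and Mrc2 was at 0.34 (adjusted p = 0.0758). These values are descriptive, since the genes were picked for likeness over 8 libraries that share their tissue and preparation.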

How the data were processed

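The authors deposited unnormalized read counts for each Ensembl gene in 8 columns, from mRNA libraries of powdered frozen heart, per the labels' protocols. The submitters' processing notes name HISAT2 2.0.5 and mm10 with no role, while the counter, annotation release and use of strand are not given in any source used here. Columns were matched to libraries by title and grouped by the treatment label, and replicate numbers only name libraries. The numbers in the library titles do not mix between groups, so handling that follows them and MR cannot be told apart. Separate animals are not stated in the labels, so the p-values measure only the spread of these samples, which may be technical. Genes with 2 counts were 2.27 to 2.82 times as frequent as genes with 1, so counts may include both ends of a fragment. Within groups no library was a copy of another (chi-square per degree of freedom 13.4 to 47.6).

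Symbols, coordinates and exon lengths came from GENCODE M21 (GRCm38), which matched 32350 of 33105 identifiers. Genes were filtered with filterByExpr (minimum count 10, minimum total 15), scaled by TMM (factors 0.967 to 1.019) and tested with the robust quasi-likelihood F test of edgeR 4.0.16 in R 4.3.3, checked on simulated data, with Benjamini-Hochberg adjustment over all 16603 genes. Adjusted p-values of genes are those of edgeR where no other tool is given. CPM are counts scaled to a common library total, taken as the table's total times the TMM factor. Alternatives used DESeq2 1.42.0 and limma 3.58.1. Marker lists were scored as mean log2 CPM with a pseudocount of 0.1 CPM.

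The members, lists and alternatives were chosen with earlier results of these data known. Genes named are all members, Loxl1, Plod3, Col1a1, Col1a2 and Col3a1, and the 5 genes nearest to the member with the lowest p. Every gene that passed is named, or otherwise the 3 with the lowest p, of the collagen, processing, hypoxia and both fibroblast lists. Genes of the other marker lists are not named. These rules do not cover P4hb, Adamts2, P3h2, P3h4, Tll1, Bmp1, Vegfa, Htra2, Gm38391 and Gm27177, which were picked with their values in view.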

Additional observations from a re-analysis of the deposited data

Results flagged for a closer look

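Serpinh1 in MR replicate 4, at 203 CPM, stood far from the other MR libraries at 167 to 172 CPM, with a gap of 0.849 of the group's range, past Dixon's critical value for 4 samples. Among 68 groups of 4 values tested this way it was the only value so far out, where chance flags about 1 in 20 groups. MR replicate 4 was also the highest library for P4ha1, at 77.6 CPM against 53.0 to 61.5 CPM, below the critical value. Without it the log2 fold change of Serpinh1 was 0.27.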

How the results depend on the processing

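The number of calls moved between settings. Over all genes 76 were called, but 936 with no filter, 650 with DESeq2, 457 with limma-voom and quality weights, and 230 after a trend with gene length was removed. With a library left out the count ran from 3 without Sham replicate 2 to 887 without Sham replicate 3, and it was 93 with Sham replicate 1 left out, 6 with Sham replicate 4 left out, and 16, 10, 14 and 41 with an MR replicate (1 to 4) left out. The share of called genes that were higher in MR was 52.6%, but 75.7% with scaling by library totals alone, and with a library left out it ran from 33.3% (1 of 3) without Sham replicate 2, with 35.5% (33 of 93) without Sham replicate 1, to 75% (12 of 16) without MR replicate 1. Of 9 members 0 were called, but 5 of 10 with no filter (Loxl2, Loxl3, P4ha1, Plod1 and Serpinh1, beside 3.06% of all genes), 4 with DESeq2 (the same without P4ha1), 3 with limma-voom (Loxl2, Plod1 and Serpinh1), 1 without robust moderation (Loxl2, beside 0.56%) and 1 after the length trend was removed (Serpinh1, beside 1.39%). With a library left out 0 to 3 members were called, and the 3 came without Sham replicate 3 (Loxl2, Plod1 and Serpinh1, beside 5.28% of all genes). The cause was not tested. The log2 fold change of P4ha2 turned sign at values of 0 with RLE factors, with DESeq2 and without MR replicate 1, and of −0.01 with limma-voom, after the length trend was removed and without Sham replicates 1 and 3 and MR replicate 4, with a highest leave-one-out value of 0.01. No other tested member changed sign. With a library left out the log2 fold change of Lox ran from 0.04 without Sham replicate 3 to 0.30 without Sham replicate 1, that of Loxl4 from 0.20 without Sham replicate 1 to 0.44 without Sham replicate 2, that of P4ha1 from 0.13 without MR replicate 4 to 0.33 without MR replicate 2, and that of Plod2 from 0.07 without Sham replicate 4 to 0.15 without Sham replicate 3. With a pseudocount of 0.5 CPM no marker list changed direction or passed. With Col1a1 alone as the denominator no ratio of a tested member changed direction. No paired analysis was possible because the labels give the groups no shared replicate numbers. Depth limits P4ha3, with at most 8 counts per library, and Loxl4.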

Other observations

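The observed spread of P4ha2 between libraries was below the value computed for counting alone. Its coefficient of variation was 1.18% in Sham and 1.35% in MR, where independent counts of this size give 2.05% and 1.93%. A spread over 4 libraries is imprecise, and the difference from the counting value was not tested. The counting values would also not hold if counts include both ends of a fragment. Among 5672 tested genes with a mean of at least 1000 counts, 21 (0.37%) were below the counting value in both groups. P4ha1, at about the same depth, varied by 4.6% in Sham and 17.8% in MR against counting values of 2.09% and 1.79%. Loxl3 was below its counting value in Sham (3.73% against 7.5%) and above it in MR (12.4% against 6.06%).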
